A study of Mus musculus with 12 samples.

Results

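Enzymes that carry pyruvate and glutamate carbon into and around the citric acid cycle were examined in colonocytes, the epithelium of the mouse large intestine. The members are 31 genes listed by symbol: 16 of the citric acid cycle, 4 of the pyruvate dehydrogenase complex, 5 of that complex's kinases and phosphatases, 3 of pyruvate entry and 3 of glutamate metabolism. All 31 were present among the 23790 genes of the deposited tables, and all 31 passed the filter on low values in each comparison. The list was drawn up with earlier results of these data known. RNA-seq of polyadenylated RNA addressed the action of C15ORF48 and miR-147, both products of a single locus, in the gut. The 12 libraries form 4 groups of 3. KO DSS libraries came from colonocytes that lack C15ORF48/miR-147, of mice on dextran sodium sulfate (DSS, which damages the gut lining) at 3% for 3 days, and WT DSS libraries from wild-type colonocytes of mice given the same DSS. KO untreated and WT untreated libraries came from mice with the treatment field reading none. The treatment protocol text mentions DSS for every library, and the titles and treatment field were followed instead. The allele, strain, age and sex are not given in the labels used here. Nor is it stated that each library is 1 mouse, and the p-values therefore speak of the spread among libraries alone.

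Pyruvate made by glycolysis enters mitochondria through a carrier built of Mpc1 and Mpc2. There it is oxidised to acetyl-CoA by the pyruvate dehydrogenase complex, which kinases switch off and phosphatases switch on, or carboxylated to oxaloacetate by pyruvate carboxylase. Acetyl-CoA is burned in the citric acid cycle, which also takes in glutamate carbon as 2-oxoglutarate. Colonocytes are known for oxidising butyrate from gut bacteria, so the cycle receives acetyl-CoA from fatty acid oxidation as well as from pyruvate.

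The deposited values correspond to 12621697 to 16707030 reads per KO DSS library, 15428255 to 16371607 per WT DSS library, 20606918 to 26839250 per KO untreated library and 21849029 to 23075055 per WT untreated library. AA467197, the mouse gene of C15ORF48, had 6.54, 7.33 and 9.19 RPKM (reads scaled to transcript length and library depth) in KO DSS libraries against 403, 370 and 515 RPKM in WT DSS libraries, and 5.67, 4.35 and 4.03 RPKM in KO untreated libraries against 430, 442 and 430 RPKM in WT untreated libraries, in accord with the labels. The 5 epithelial markers (Epcam, Krt8, Krt19, Cdh1, Vil1) summed to between 5504 and 7335 RPKM in the 12 libraries, and the 6 pan-leukocyte markers to between 12.9 and 33.1 RPKM. Erythrocyte markers were listed at 0 in all 12 libraries. In the library labelled KO DSS 1 values fell with transcript length (slope −0.217 log2 units per doubling of length relative to its table's mean) and in WT DSS 2 they rose with it (slope 0.18), while the other 10 libraries lay between −0.066 and 0.09. The cells are a bulk sample, in which fewer cells of a type and less RNA per cell cannot be told apart.

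The levels of the 31 genes spanned 115-fold. Averaged over the 12 libraries, Mdh2, the mitochondrial malate dehydrogenase, was highest at 343 RPKM, followed by Suclg1, the alpha subunit of succinyl-CoA ligase, at 338 RPKM and Cs, citrate synthase, at 290 RPKM. Of the 31 genes, 13 averaged 100 RPKM or more and 3 averaged under 10 RPKM. The 3 low genes were the pyruvate dehydrogenase phosphatases Pdp2 (9.73 RPKM) and Pdp1 (4.01 RPKM) and the carrier subunit Mpc1 (2.99 RPKM). Single genes rested on between 52 reads (Mpc1) and 24965 reads (Cs) in a library.

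**Figure D1:**
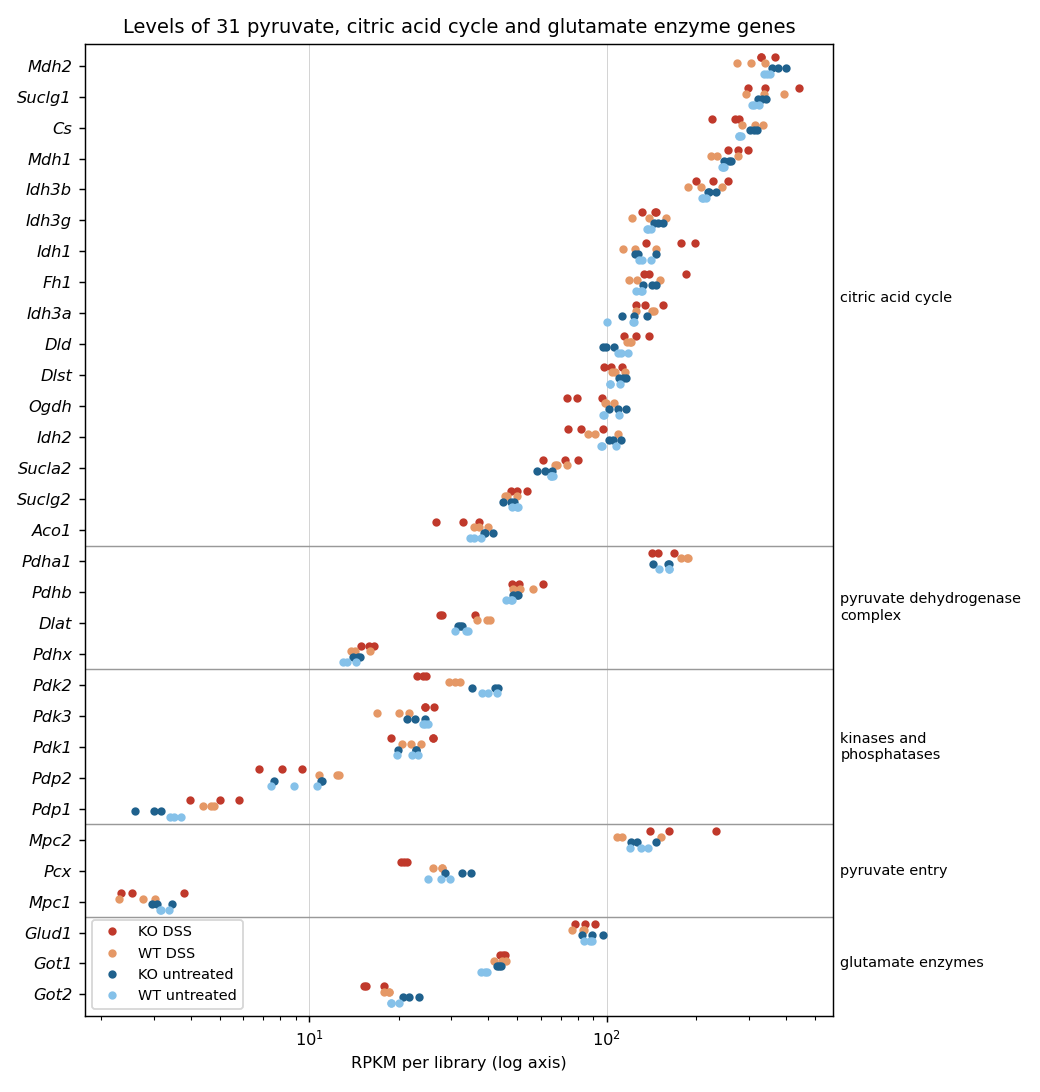
RPKM of each of the 31 genes in each library on a log axis, 1 point per library, grouped by role and ordered within a role by the mean over the 12 libraries. Most genes sit within a narrow band across the 4 groups, while the genes themselves run from 2.99 RPKM (Mpc1) to 343 RPKM (Mdh2).

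Among cycle genes, Mdh2 had 368, 330 and 331 RPKM in KO DSS libraries against 305, 275 and 339 RPKM in WT DSS libraries, and 377, 400 and 359 RPKM in KO untreated libraries against 337, 352 and 344 RPKM in WT untreated libraries. Its KO and WT values overlapped under DSS and did not overlap in untreated mice, where every KO value was the higher. The lowest cycle gene was Aco1, the cytosolic aconitase and iron regulatory protein, with 26.7, 37.2 and 32.9 RPKM in KO DSS libraries against 35.8, 39.8 and 37.1 RPKM in WT DSS libraries. In untreated mice Aco1 had 38.9, 41.5 and 38.7 RPKM in KO libraries against 34.8, 35.9 and 37.8 RPKM in WT libraries. The groups overlapped for Aco1 under DSS, and every KO value was above every WT value in untreated mice.

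Within the pyruvate dehydrogenase complex, Pdha1, the E1 alpha subunit that the kinases phosphorylate, was highest, with 149, 142 and 168 RPKM in KO DSS libraries against 178, 186 and 187 RPKM in WT DSS libraries, and 143, 162 and 160 RPKM in KO untreated libraries against 150, 162 and 162 RPKM in WT untreated libraries. The 3 WT DSS values were the highest of the 12. Pdhx, which holds the E3 subunit in the complex, was lowest, with 15.0, 16.4 and 15.8 RPKM in KO DSS libraries against 14.2, 13.9 and 16.0 RPKM in WT DSS libraries, and 14.8, 14.6 and 14.0 RPKM in KO untreated libraries against 14.3, 13.4 and 13.0 RPKM in WT untreated libraries. Its KO and WT values overlapped in both conditions.

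The carrier subunits lay far apart, with Mpc2 at a mean 47.0 times that of Mpc1. Mpc2 had 233, 140 and 162 RPKM in KO DSS libraries against 112, 108 and 152 RPKM in WT DSS libraries, and 147, 126 and 120 RPKM in KO untreated libraries against 138, 130 and 120 RPKM in WT untreated libraries. Mpc1 had 3.80, 2.34 and 2.53 RPKM in KO DSS libraries against 2.77, 2.29 and 3.03 RPKM in WT DSS libraries, and 2.96, 3.07 and 3.46 RPKM in KO untreated libraries against 3.38, 3.16 and 3.14 RPKM in WT untreated libraries. KO and WT overlapped for both genes in both conditions, and the highest Mpc1 and Mpc2 values were those of KO DSS 1. The level of Mpc1 is uncertain, because 26.8% of the 50-base words of its coding transcripts also stand in other annotated genes, Mpc1-ps among them. The same share was 47.2% for Got2, 30.3% for Pdhb, 19.1% for Suclg2, 16.9% for Pdha1, 8.06% for Glud1 and 4.0% for Cs, and below 1% for the other 24 genes, so those 6 levels are uncertain too.

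Of the glutamate enzymes, Glud1, glutamate dehydrogenase, was highest, with 84.4, 78.2 and 91.1 RPKM in KO DSS libraries against 83.3, 76.6 and 83.6 RPKM in WT DSS libraries, and 89.0, 96.9 and 82.8 RPKM in KO untreated libraries against 83.8, 89.1 and 87.9 RPKM in WT untreated libraries. The groups overlapped in both conditions. The mitochondrial aspartate aminotransferase gene Got2 was lowest in the class, with a mean of 18.9 RPKM.

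Under DSS, loss of the locus was compared in 6 libraries of 1 table. KO colonocytes had, on average, less pyruvate carboxylase (Pcx), less of the phosphatase gene Pdp2, less of the kinase gene Pdk2 and less Dlat, and more of the kinase gene Pdk3, but none of the 31 genes passed the test. With limma and Benjamini-Hochberg adjustment over 10990 genes, 0 of 31 members were called at an adjusted p under 0.05, where 0.764% of all genes tested were called. At an unadjusted p under 0.05, 7 members passed, 3 higher and 4 lower in KO, where 18.7% of all genes did (9.85% higher, 8.83% lower). A test on whole reads recovered from the RPKM values, limma's voom, also called 0 members, with 8 under an unadjusted p of 0.05. Of the members, 7 had a p-value under 0.05 in the authors' deposited table, and the lowest false discovery rate of a member was 0.139.

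Pcx, which makes oxaloacetate from pyruvate, is encoded on chromosome 19 (4510472 to 4621752, plus strand, GRCm38, ENSMUSG00000024892.17). It had 21.3, 20.3 and 20.7 RPKM in KO DSS libraries against 27.9, 26.0 and 28.0 RPKM in WT DSS libraries. Every KO value was below every WT value, and the log2 fold change was −0.38 (SE 0.11, adjusted p by limma = 0.144), or 0.77-fold. Mpc2 averaged 179 ± 48.7 RPKM in KO DSS libraries and 124 ± 24.4 RPKM in WT DSS libraries (SD, n = 3 each), a log2 fold change of 0.50 (SE 0.21, adjusted p by limma = 0.253), with overlap. Without KO DSS replicate 1, the highest of the 12 libraries, it was 0.30 (adjusted p by limma = 0.406). Mpc1 averaged 2.89 ± 0.794 RPKM in KO DSS libraries and 2.70 ± 0.378 RPKM in WT DSS libraries (log2 fold change 0.06).

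Pdp2, 1 of the phosphatases that switch the complex on, is encoded on chromosome 8 (104591451 to 104599026, plus strand, ENSMUSG00000048371.8). It had 8.10, 9.44 and 6.79 RPKM in KO DSS libraries against 12.4, 12.6 and 10.8 RPKM in WT DSS libraries. All KO values were below all WT values, and the log2 fold change of −0.51 (SE 0.14, adjusted p by limma = 0.133) had the smallest p of the 31 genes. The other phosphatase, Pdp1, had 5.80, 3.98 and 5.02 RPKM in KO DSS libraries against 4.66, 4.40 and 4.79 RPKM in WT DSS libraries. Its groups overlapped (log2 fold change 0.07).

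The kinases differed among themselves. Pdk2 (chromosome 11, 95026258 to 95041354, minus strand, ENSMUSG00000038967.13) had 23.0, 24.1 and 24.7 RPKM in KO DSS libraries against 29.4, 32.0 and 30.9 RPKM in WT DSS libraries, a log2 fold change of −0.35 (SE 0.11, adjusted p by limma = 0.167). Pdk3 (X chromosome, 93764607 to 93832201, minus strand, ENSMUSG00000035232.8) had 24.4, 26.2 and 24.5 RPKM in KO DSS libraries against 19.9, 16.9 and 21.6 RPKM in WT DSS libraries, a log2 fold change of 0.35 (SE 0.13, adjusted p by limma = 0.205). The groups did not overlap for either gene, with KO below WT for Pdk2 and above it for Pdk3. Pdk1, a kinase gene known as a target of hypoxia-inducible factor, averaged 23.7 ± 4.14 RPKM in KO DSS libraries and 22.0 ± 1.57 RPKM in WT DSS libraries (SD, n = 3 each), a log2 fold change of 0.09 with overlap.

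**Figure D2:**
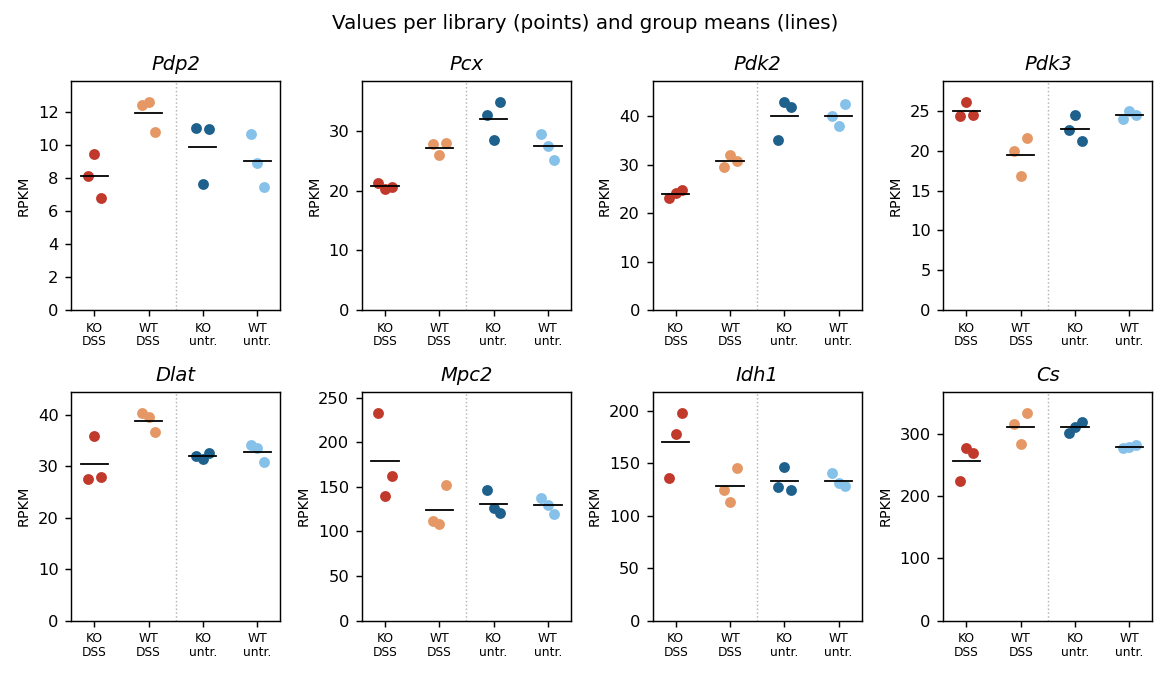
RPKM in each library (points) with the mean of each group (line) for 8 of the genes; KO DSS, WT DSS, KO untreated and WT untreated run from left to right, with untreated shortened to untr. on the axis. The KO DSS points of Pdp2, Pcx, Pdk2, Dlat and Cs lie below all WT DSS points, those of Pdk3 lie above them, and Mpc2 and Idh1 overlap.

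Dlat, the E2 core of the pyruvate dehydrogenase complex (chromosome 9, 50634633 to 50659780, minus strand, ENSMUSG00000000168.9), had 27.5, 36.0 and 28.0 RPKM in KO DSS libraries against 40.5, 39.6 and 36.7 RPKM in WT DSS libraries. The highest KO value was just below the lowest WT value, and the log2 fold change was −0.35 (SE 0.14, adjusted p by limma = 0.227). Pdha1 averaged 153 ± 13.4 RPKM in KO DSS libraries and 184 ± 5.14 RPKM in WT DSS libraries, a log2 fold change of −0.27 (SE 0.13, adjusted p by limma = 0.309). Pdhb, the E1 beta subunit, averaged 53.2 ± 6.91 RPKM in KO DSS libraries and 52.0 ± 4.01 RPKM in WT DSS libraries (log2 fold change 0.03), and Pdhx had a log2 fold change of 0.09. Summed over these 4 genes, KO DSS libraries had 243 to 262 RPKM and WT DSS libraries 283 to 296 RPKM. These ranges did not overlap, and those of the other role classes did under DSS. In untreated mice the sums were 240 to 259 RPKM in KO libraries and 246 to 257 RPKM in WT libraries. The sum is mostly Pdha1, and it leaves out the E3 gene Dld, counted here with the cycle. Dld averaged 126 RPKM in KO DSS libraries and 119 RPKM in WT DSS libraries, with overlap. Of single genes tested, 23% did not overlap under DSS.

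Of the 16 cycle genes, 11 had a log2 fold change above 0 under DSS and 5 below it, with a median of 0.05. Cs, which joins acetyl-CoA to oxaloacetate, had 225, 278 and 269 RPKM in KO DSS libraries against 316, 285 and 335 RPKM in WT DSS libraries, a log2 fold change of −0.28 (SE 0.16, adjusted p by limma = 0.345) without overlap. Ogdh, the E1 subunit of the 2-oxoglutarate dehydrogenase complex, averaged 83.0 ± 11.9 RPKM in KO DSS libraries and 101 ± 3.65 RPKM in WT DSS libraries, a log2 fold change of −0.29 (SE 0.14, adjusted p by limma = 0.291) without overlap. These were the only cycle genes whose KO and WT values did not overlap under DSS. Idh1, the cytosolic NADP-dependent isocitrate dehydrogenase, had 135, 177 and 198 RPKM in KO DSS libraries against 125, 113 and 146 RPKM in WT DSS libraries. Its log2 fold change of 0.40 (SE 0.18, adjusted p by limma = 0.266) was the highest in the cycle, with overlap.

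The other cycle genes lay closer to 0, all with overlap under DSS. Idh2, the mitochondrial NADP-dependent isocitrate dehydrogenase, averaged 84.4 ± 11.8 RPKM in KO DSS libraries and 95.5 ± 11.6 RPKM in WT DSS libraries (log2 fold change −0.18). The NAD-dependent enzyme's 3 subunit genes had log2 fold changes of 0.01 (Idh3a, 138 RPKM in KO DSS and 137 RPKM in WT DSS libraries), 0.10 (Idh3b, 228 RPKM in KO DSS and 213 RPKM in WT DSS libraries) and 0.03 (Idh3g, 141 RPKM in KO DSS and 139 RPKM in WT DSS libraries). Of the enzymes that handle succinyl-CoA, Dlst (E2 of the 2-oxoglutarate complex) had −0.05, Dld (the E3 subunit shared by the 2-oxoacid dehydrogenases) 0.08, and the ligase genes Suclg1, Sucla2 and Suclg2 had 0.07, 0.03 and 0.10. Fh1, fumarase, had 152 ± 28.4 RPKM in KO DSS libraries and 132 ± 16.7 RPKM in WT DSS libraries (log2 fold change 0.19), and the malate dehydrogenases Mdh1 and Mdh2 had log2 fold changes of 0.17 each. Summed over the 16 genes, the cycle had 2530 to 2732 RPKM in KO DSS libraries and 2332 to 2785 RPKM in WT DSS libraries.

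Got2 had 15.5, 15.3 and 17.8 RPKM in KO DSS libraries against 18.5, 17.9 and 18.5 RPKM in WT DSS libraries, a log2 fold change of −0.17 (SE 0.12, adjusted p by limma = 0.43). Every KO value was below every WT value, the nearest pair being 17.8 and 17.9 RPKM. Got1, the cytosolic aspartate aminotransferase, had 44.9, 43.6 and 45.5 RPKM in KO DSS libraries against 41.7, 45.9 and 44.5 RPKM in WT DSS libraries (log2 fold change 0.02), and Glud1 had a log2 fold change of 0.06. Both overlapped.

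Counted over the 31 genes under DSS, 20 had a log2 fold change above 0, where 49.2% of all genes tested did, and the median was 0.03 against −0.01 over all genes. KO lay wholly above WT for 1 member (Pdk3), where 11.1% of all genes did so, and wholly below it for 8 members, where 11.9% of all genes did so. The 8 were Pdp2, Pcx, Pdk2, Dlat, Ogdh, Pdha1, Cs and Got2. Their 9 together compare with 23% of all genes tested.

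**Figure D3:**
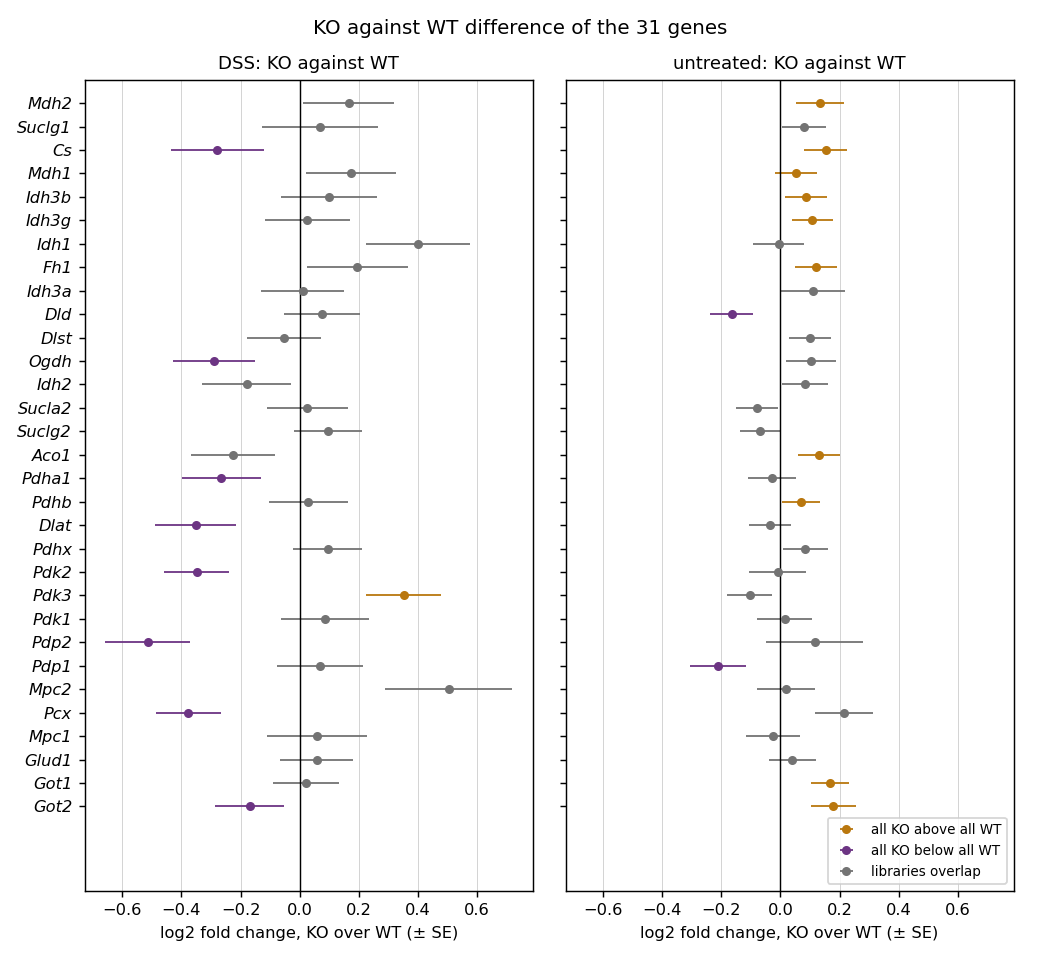
Log2 fold change of KO over WT on the log2(RPKM + 1) scale, with its limma standard error, for each of the 31 genes under DSS (left) and in untreated mice (right). Genes whose KO and WT libraries do not overlap are coloured, 8 below and 1 above under DSS, and 2 below and 10 above in untreated mice.

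The promoters of the 3 lower genes with the smallest p under DSS are printed because each holds the E-box word CACGTG, which MYC, USF and related factors are known to bind. They run from 250 bases before to 50 bases after the start of the gene in RefSeq (GRCm38.p6), 5′ to 3′ on the gene's strand, with the E-box in capitals. The windows are chr8:104591222-104591521 (plus strand) for Pdp2, chr19:4510222-4510521 (plus strand) for Pcx and chr11:95041322-95041621 (minus strand) for Pdk2.
Pdp2: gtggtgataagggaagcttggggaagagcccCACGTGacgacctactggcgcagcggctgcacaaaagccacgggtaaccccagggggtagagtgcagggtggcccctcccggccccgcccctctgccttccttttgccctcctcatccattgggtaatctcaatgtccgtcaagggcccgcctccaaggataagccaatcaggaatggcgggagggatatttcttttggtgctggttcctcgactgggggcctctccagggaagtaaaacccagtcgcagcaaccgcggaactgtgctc
Pcx: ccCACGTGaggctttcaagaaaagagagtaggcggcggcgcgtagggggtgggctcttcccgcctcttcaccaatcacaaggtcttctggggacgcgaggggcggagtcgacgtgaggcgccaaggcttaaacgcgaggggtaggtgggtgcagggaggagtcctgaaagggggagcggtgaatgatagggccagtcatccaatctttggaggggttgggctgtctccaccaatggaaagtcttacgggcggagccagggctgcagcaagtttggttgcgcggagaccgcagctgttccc
Pdk2: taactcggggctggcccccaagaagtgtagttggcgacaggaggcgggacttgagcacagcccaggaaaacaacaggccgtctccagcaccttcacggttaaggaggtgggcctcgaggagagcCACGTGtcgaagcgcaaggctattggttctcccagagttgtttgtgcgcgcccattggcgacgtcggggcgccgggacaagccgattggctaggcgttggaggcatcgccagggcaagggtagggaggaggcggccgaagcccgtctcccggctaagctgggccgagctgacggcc

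The E-box stood 219 bases before the start in Pdp2, 248 bases before it in Pcx and 126 bases before it in Pdk2. A promoter sequence was found for 29 of the 31 genes, and 4 of these (13.8%) held the word on either strand, Ogdh being the other one, where 12.3% of the promoters of tested genes did. No match was found for Dlat, Pdha1, Cs or Got2, which were also lower in KO without overlap under DSS. The printed genes were picked by their p-values in these same data, and a link of the word to their fold changes was not tested. Over the tested genes the median log2 fold change under DSS was −0.03 for the 1084 with the word and 0.00 for the 7731 without it. The NRF1 word was found in 2 of the 29 promoters (Dld and Sucla2), where 15.7% of tested genes held it. The ESRRA word AAGGTCA was found in Got1 and Ogdh (3.9% of tested genes) and the CRE word TGACGTCA in Mdh2 and Ogdh (3.7% of tested genes). Both strands were searched, none of these words contains another, and a match is a description, not a bound site.

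Transcript length moved with the DSS differences. Over all genes tested, split into 10 bins of equal size by length, the log2 fold changes had a median of 0.26 in the bin of the shortest transcripts (median 869 bases) and −0.25 in that of the longest (median 7914 bases). Across the 31 genes the fold change and the log2 length had a Pearson r of −0.597 and a Spearman rho of −0.525, points that share the same 6 libraries. The 15 members shorter than 2406 bases had a median of 0.07, and the other 16 had −0.14. Mpc2 is the shortest at 807 bases, and Ogdh (7111 bases), Pdp2 (5674 bases) and Pcx (4275 bases) are among the longest. Pdk1 (5533 bases) and Pdp1 (4401 bases) are also long but had log2 fold changes above 0 (0.09 and 0.07). With the length trend taken out of each library, the median of the members under DSS was −0.06 and 11 of 31 lay above 0. Pdk2 then had −0.37 (adjusted p = 0.0643), Pdp2 −0.35 (0.133), Pcx −0.28 (0.158), Pdk3 0.27 (0.166), Mpc2 0.24 (0.198) and Idh2 −0.30 (0.109), all log2 fold changes with limma adjusted p-values. In the same form, Pdha1 had −0.27 (0.16), Dlat −0.27 (0.166), Cs −0.27 (0.199), Idh1 0.36 (0.205) and Got2 −0.215 (0.222). Pdk1 had 0.24 (0.297) where it had 0.09 before. Others lay near 0 after the correction: Ogdh had −0.07 (0.685) where it had −0.29 before, Mdh2 −0.02 (0.933) where it had 0.17, and Fh1 0.07 (0.747) where it had 0.19. Whether the length trend comes from the animals or the libraries was not tested.

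**Figure D4:**
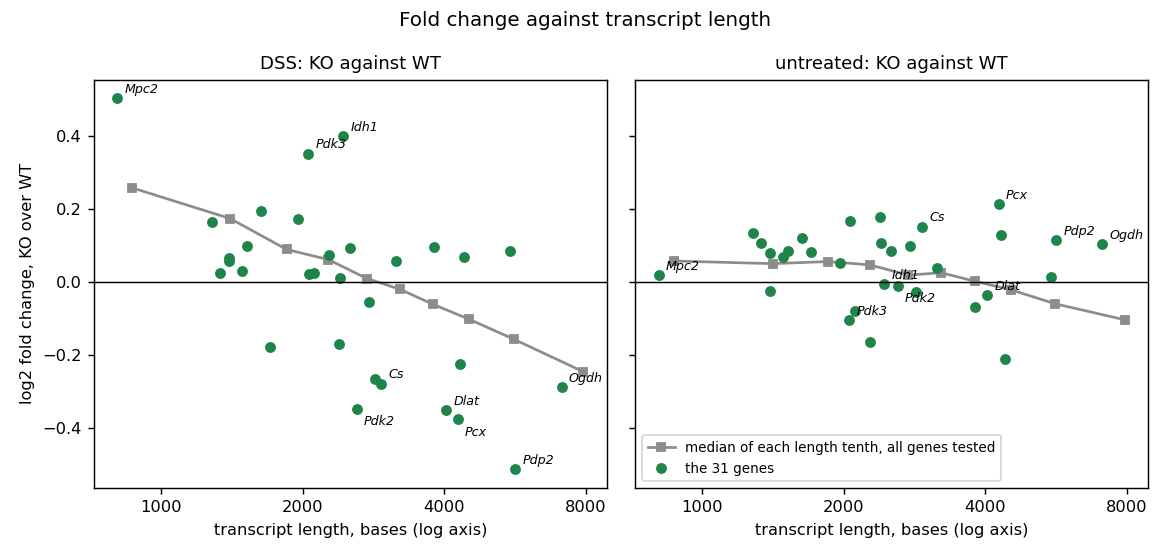
Log2 fold change of KO over WT against transcript length on a log axis, under DSS (left) and in untreated mice (right); green points are the 31 genes and grey squares the medians of all genes tested in 10 bins of length. The grey line runs between 0.26 at the short end and −0.25 at the long end under DSS and is flatter in untreated mice, and Mpc2 lies at the short end while Pdp2 lies at the long end.

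Some of the marker lists also differed between the DSS groups. The 6 absorptive colonocyte markers summed to 11530 to 15634 RPKM in KO DSS libraries against 4476 to 8853 RPKM in WT DSS libraries, most of it Car1 (11707 RPKM in KO DSS and 4957 RPKM in WT DSS libraries), while Aqp8 had 192 RPKM in both KO DSS and WT DSS libraries. The 6 pan-leukocyte markers summed to 19.0 to 33.1 RPKM in KO DSS libraries against 15.4 to 17.5 RPKM in WT DSS libraries, and the 6 macrophage markers to 5.13 to 12.2 RPKM in KO DSS libraries against 1.64 to 3.00 RPKM in WT DSS libraries. The 5 T cell markers present summed to 10.3 to 20.4 RPKM in KO DSS libraries against 5.21 to 8.51 RPKM in WT DSS libraries, and the 4 neutrophil markers to 1.40 to 10.2 RPKM in KO DSS libraries against 0.274 to 1.34 RPKM in WT DSS libraries. The 4 endothelial markers summed to 0.805 to 0.992 RPKM in KO DSS libraries against 1.12 to 1.59 RPKM in WT DSS libraries. The KO and WT sums of these 6 lists did not overlap under DSS. Those of epithelium, goblet, enteroendocrine, tuft, crypt stem, proliferation, B and plasma, fibroblast, smooth muscle, and enteric glia and neuron lists overlapped. Erythrocyte sums were 0 in both groups. Of single genes tested, 23% did not overlap under DSS. The part of cell types in the differences of the 31 genes was not tested.

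Ratios of paired isoenzymes or subunits within a library need no library scaling. Of 11 ratios under DSS, 5 did not overlap between KO and WT, each with an exact permutation p of 0.1 (2-sided, the smallest that 3 against 3 libraries allow) and an adjusted p of 0.22, so this design could not reach 0.05. In untreated mice 1 of the 11 did not overlap (Mdh2/Mdh1, with a geometric mean of 1.48 in KO libraries and 1.40 in WT libraries, exact permutation p = 0.1, adjusted p = 0.88). Ratios that share a gene, such as the 2 with Pdk2, are not independent. Pdk3/Pdk2 was 1.06, 1.09 and 0.992 in KO DSS libraries against 0.677, 0.527 and 0.701 in WT DSS libraries. In untreated mice it was 0.645, 0.57 and 0.507 in KO libraries against 0.601, 0.661 and 0.576 in WT libraries, so the KO DSS libraries alone held about as much Pdk3 as Pdk2. Pdk1/Pdk2 was 0.819, 1.08 and 1.06 in KO DSS libraries against 0.697, 0.685 and 0.767 in WT DSS libraries.

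Idh2/Idh1, the mitochondrial against the cytosolic NADP-dependent enzyme, was 0.717, 0.417 and 0.414 in KO DSS libraries against 0.734, 0.764 and 0.745 in WT DSS libraries. KO DSS 1 lay close to WT and the other two KO values well below. Mpc2/Mpc1 was 61.4, 60.0 and 64.0 in KO DSS libraries against 40.5, 47.1 and 50.2 in WT DSS libraries, and Pdhb/Pdha1 was 0.411, 0.337 and 0.302 in KO DSS libraries against 0.287, 0.261 and 0.301 in WT DSS libraries. Both pairs hold a gene whose reads can be shared with copies, and in both the shorter transcript is on top. The ratios Idh3b/Idh3a, Idh3g/Idh3a, Suclg2/Sucla2, Mdh2/Mdh1, Got2/Got1 and Pdp2/Pdp1 overlapped under DSS. Pdp2/Pdp1 had a geometric mean of 1.65 in KO DSS libraries and 2.58 in WT DSS libraries (exact permutation p = 0.2).

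**Figure D5:**
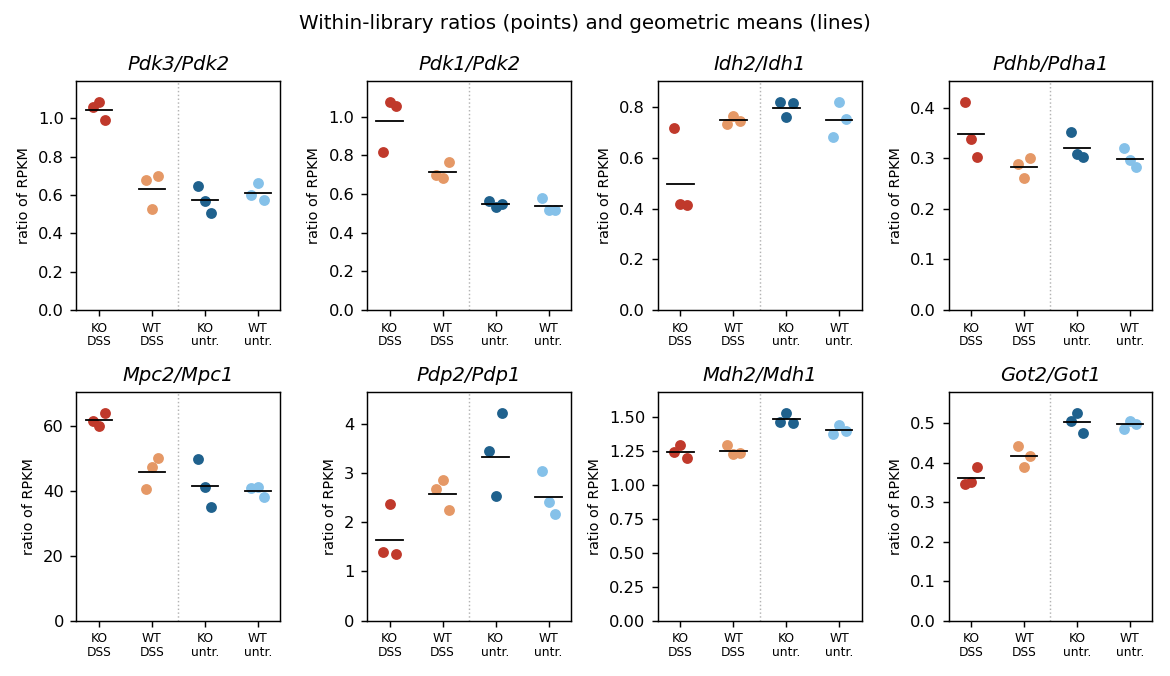
Ratio of RPKM of 8 gene pairs in each library (points) with the geometric mean of each group (line); KO DSS, WT DSS, KO untreated and WT untreated run from left to right, with untreated shortened to untr. Pdk3/Pdk2 is near 1.04 in KO DSS libraries, against 0.63 in WT DSS libraries, 0.571 in KO untreated libraries and 0.612 in WT untreated libraries.

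In untreated mice the KO and WT levels of the 31 genes were closer. The cytosolic and mitochondrial aspartate aminotransferases and several cycle genes were slightly higher in KO, while Dld and Pdp1 were slightly lower, and none passed the test. With limma, 0 of 31 members were called, where 0.0181% of 11072 genes tested were, and voom called 0 as well. At an unadjusted p under 0.05 there were 2 members (Got1 and Got2, both higher), where 9.09% of all genes passed (3.89% higher, 5.19% lower). By voom 3 members passed at that p. By the authors' deposited p-values only Pdp1 passed, lower in KO (deposited log2 fold change −0.27). Neither Got1 nor Got2 passed by those deposited p-values.

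Got1 had 42.8, 44.2 and 43.5 RPKM in KO untreated libraries against 38.8, 39.4 and 37.7 RPKM in WT untreated libraries, a log2 fold change of 0.17 (SE 0.06, adjusted p by limma = 0.525). Got2 had 21.7, 23.3 and 20.7 RPKM in KO untreated libraries against 18.8, 20.0 and 18.8 RPKM in WT untreated libraries, a log2 fold change of 0.18 (SE 0.08, adjusted p by limma = 0.543). For both genes every KO value was above every WT value. Dld had 99.0, 96.7 and 105 RPKM in KO untreated libraries against 118, 111 and 109 RPKM in WT untreated libraries (log2 fold change −0.16, SE 0.07, adjusted p by limma = 0.548). Pdp1 had 3.18, 3.00 and 2.60 RPKM in KO untreated libraries against 3.51, 3.70 and 3.41 RPKM in WT untreated libraries (log2 fold change −0.21, SE 0.10, adjusted p by limma = 0.549). Both were lower in KO without overlap. Pcx had 32.7, 28.5 and 35.0 RPKM in KO untreated libraries against 29.6, 27.6 and 25.1 RPKM in WT untreated libraries (log2 fold change 0.21, SE 0.10, adjusted p by limma = 0.549), with overlap.

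Over the 31 genes in untreated mice, 21 had a log2 fold change above 0, where 53.3% of all genes tested did, and the median was 0.08 against 0.01 over all genes. KO lay wholly above WT for 10 members, where 8.32% of all genes did so, and wholly below it for 2 members, where 7.68% of all genes did so. The 10 were Cs, Aco1, Idh3b, Idh3g, Fh1, Mdh1, Mdh2, Pdhb, Got1 and Got2, with log2 fold changes between 0.05 (Mdh1) and 0.18 (Got2). The median coefficient of variation of the members was 5.43% in KO untreated and 4.03% in WT untreated libraries, where it was 8.78% and 8.34% over the 10241 genes with 1 RPKM or more in every library. Cs had 302, 311 and 320 RPKM in KO untreated libraries against 278, 279 and 282 RPKM in WT untreated libraries. Its values within each group lay close together, and the log2 fold change was 0.15 (SE 0.07, adjusted p by limma = 0.563). Summed over the 16 cycle genes, KO untreated libraries had 2575 to 2690 RPKM and WT untreated libraries 2471 to 2495 RPKM.

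The genes that stood out under DSS had other values in untreated mice. Pdk2 had 35.1, 43.0 and 41.9 RPKM in KO untreated libraries against 40.0, 37.9 and 42.6 RPKM in WT untreated libraries. Pdk3 had 22.6, 24.5 and 21.3 RPKM in KO untreated libraries against 24.0, 25.1 and 24.5 RPKM in WT untreated libraries. Pdp2 had 10.999, 7.60 and 10.99 RPKM in KO untreated libraries against 10.7, 8.90 and 7.43 RPKM in WT untreated libraries. KO and WT overlapped for all 3. Dlat had 32.0, 31.5 and 32.6 RPKM in KO untreated libraries against 34.1, 33.6 and 30.9 RPKM in WT untreated libraries, also with overlap. The DSS and untreated tables were normalised separately, so levels of one gene across the tables are set side by side here and were not tested.

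A contrast over the 12 libraries asked if the KO minus WT difference under DSS was unlike that in untreated mice. The difference of differences was below 0 for Pcx, Pdp2, Cs and Got2 and above 0 for Pdk3, and no member was called with limma, where 1.4% of 11306 genes were. Because each condition has a table and libraries of its own, DSS and batch cannot be told apart. At an unadjusted p under 0.05 there were 8 members, 1 higher and 7 lower, where 19% of all genes passed (9.47% higher, 9.56% lower), and voom called 1 (Pcx), with 10 at that unadjusted p. Of the 31 genes, 15 lay above 0, where 49.6% of all genes did, with a median of −0.01.

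Pcx came closest, at −0.59 on the log2 scale (SE 0.14, adjusted p by limma = 0.0529). Its mean was 20.8 ± 0.462 RPKM in KO DSS libraries and 27.3 ± 1.14 RPKM in WT DSS libraries, and 32.1 ± 3.27 RPKM in KO untreated libraries and 27.5 ± 2.26 RPKM in WT untreated libraries (SD, n = 3 each), with KO below WT under DSS and a higher KO mean in untreated mice. By voom the Pcx difference was −0.69 (adjusted p = 0.0397), and without KO DSS replicate 1 it was −0.61 (adjusted p by limma = 0.0358). Of the 17 alternatives these 2 called it, and the adjusted p ran between 0.0358 and 0.143 over all 17. Pdk3 had 0.46 (SE 0.14, adjusted p by limma = 0.114), Pdp2 −0.63 (SE 0.23, adjusted p by limma = 0.169), Got2 −0.35 (SE 0.12, adjusted p by limma = 0.162) and Cs −0.43 (SE 0.16, adjusted p by limma = 0.171). With the length trend taken out, Pdk3 had 0.43 (adjusted p = 0.0484) and Pcx −0.52 (adjusted p = 0.0515).

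Other genes of the pathway were described from 7 lists drawn up beside the members. A called gene was found in the list of glutamine and glutamate metabolism. Slc1a1, a glutamate transporter of the plasma membrane (EAAT3), had 13.0, 13.8 and 12.8 RPKM in KO DSS libraries against 23.2, 30.6 and 22.9 RPKM in WT DSS libraries, and 18.8, 14.9 and 16.6 RPKM in KO untreated libraries against 15.6, 19.2 and 14.4 RPKM in WT untreated libraries. KO lay wholly below WT under DSS and overlapped with it in untreated mice. The log2 fold change of Slc1a1, KO over WT under DSS, was −0.89 (SE 0.14, adjusted p by limma = 0.0341), and the difference of differences was −0.93 (SE 0.19, adjusted p by limma = 0.038). The DSS call was held in 1 of 6 fits that left out a library, the one without KO DSS replicate 1, and was lost without KO DSS replicate 2, KO DSS replicate 3, WT DSS replicate 1, WT DSS replicate 2 or WT DSS replicate 3 (adjusted p 0.0525 to 0.189).

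Acly, which splits citrate into acetyl-CoA and oxaloacetate in the cytosol, had 90.2, 106 and 86.8 RPKM in KO DSS libraries against 136, 196 and 148 RPKM in WT DSS libraries, and 151, 135 and 127 RPKM in KO untreated libraries against 118, 119 and 99.8 RPKM in WT untreated libraries. KO lay wholly below WT under DSS and wholly above it in untreated mice. The log2 fold change under DSS was −0.75 (SE 0.17, adjusted p by limma = 0.0884). Acly was called under DSS in 3 of 13 alternatives. With the length trend taken out it had −0.65 (adjusted p by limma = 0.0377). The others were the 12-library fit (adjusted p by limma = 0.0145) and the replicate block (adjusted p by limma = 0.0283). The 12-library fit takes its spread from the untreated libraries too, which varied less. Over 10241 genes the median coefficient of variation was 14.37% in KO DSS, 11.67% in WT DSS, 8.78% in KO untreated and 8.34% in WT untreated libraries. The block rests on replicate numbers, which were not taken to pair libraries. For Acly the difference of differences was −1.04 (SE 0.20, adjusted p by limma = 0.0356), a call held in 3 of the 12 fits that left out a library. Those 3 were without KO DSS replicate 1, without KO DSS replicate 2 and without WT DSS replicate 3, and leaving out any of the other 9 lost it, with the highest adjusted p (0.105) without KO untreated replicate 2. The Slc1a1 difference of differences was held in 4 of the 12, those same 3 and the one without WT untreated replicate 2, with a highest adjusted p of 0.115. With no filter on low values the adjusted p was 0.0751 for Acly and 0.0801 for Slc1a1 in this contrast, and 0.132 for Slc1a1 under DSS.

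Of the 8 tested genes that complete the cycle and the pyruvate dehydrogenase system, 0 were called with limma in any of the 3 comparisons. At an unadjusted p under 0.05 there were 1 in untreated mice, 1 under DSS and 2 in the difference of differences. Over all genes tested, 9.09%, 18.7% and 19% passed in those comparisons, and 0.0181%, 0.764% and 1.4% were called. In this list the kinase gene Pdk4 had 2.33, 2.70 and 3.38 RPKM in KO untreated libraries against 7.47, 3.55 and 4.42 RPKM in WT untreated libraries, without overlap (log2 fold change −0.65, SE 0.22, adjusted p by limma = 0.51). Under DSS it had 2.59, 1.20 and 3.31 RPKM in KO libraries against 2.0, 0.975 and 1.87 RPKM in WT libraries, with overlap. Slc25a12, a mitochondrial aspartate-glutamate carrier, had 11.9, 8.56 and 7.70 RPKM in KO DSS libraries against 15.7, 17.0 and 14.2 RPKM in WT DSS libraries (log2 fold change −0.70, SE 0.16, adjusted p by limma = 0.0981). Slc25a13, another such carrier, went the other way, with means of 29.0 RPKM in KO DSS and 24.0 RPKM in WT DSS libraries. Its groups overlapped (log2 fold change 0.26, SE 0.14, adjusted p by limma = 0.319). Glul, glutamine synthetase, had 231, 212 and 236 RPKM in KO DSS libraries against 322, 316 and 352 RPKM in WT DSS libraries (log2 fold change −0.54, SE 0.14, adjusted p by limma = 0.117). Ppargc1a, a coactivator of mitochondrial genes, had 7.48, 10.9 and 10.7 RPKM in KO DSS libraries against 17.9, 18.0 and 11.5 RPKM in WT DSS libraries (log2 fold change −0.64, SE 0.20, adjusted p by limma = 0.164). In Slc25a12, Glul and Ppargc1a, which were picked after their values were seen, KO lay wholly below WT. Under DSS, where 9.85% of all genes tested were higher and 8.83% lower at an unadjusted p under 0.05, the list genes at that p were 4 lower of 10 tested in glutamine and glutamate metabolism, 2 lower of 8 in pyruvate and malate exits, 1 higher and 1 lower of 6 mitochondrial carriers, 2 lower of 10 regulators, and 0 each of 5 lipoate genes and 4 branched-chain and 2-oxoadipate dehydrogenase genes. Slc1a1 was the 1 gene of the 7 lists called under DSS in the 6-library fit, where 0.764% of all genes tested were called. In untreated mice 0 were called with limma, where 0.0181% of all genes were. At an unadjusted p under 0.05 in untreated mice, Acly was higher and Pdk4, Me1 and Gpt2 were lower, where 9.09% of all genes passed.

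Beside the 31 genes, the 35 tested nuclear subunit genes of respiratory complex I had a median log2 fold change of 0.34 under DSS, with 34 above 0 and 0 called with limma (8 at an unadjusted p under 0.05, all higher), where 49.2% of all genes lay above 0, 0.764% were called and 9.85% were higher at that p. The length bin of the shortest transcripts had a median of 0.26 in the same comparison, and the lengths of the complex I transcripts were not set against it. The 13 tested glycolysis genes had a median of 0.06, with 9 above 0 and 0 called (1 higher and 2 lower at an unadjusted p under 0.05). The corresponding median of the 31 genes was 0.03, with 20 above 0.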

How the data were processed

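Per the labels' protocols, libraries were stranded and enriched for polyadenylated RNA (KAPA mRNA HyperPrep kit). Per the submitters' processing notes, TopHat2 2.1.1 and edgeR 3.30.3 were used, on GRCm38/mm10; the counter, its strand setting and its annotation were not given in the sources used here, and reads of genes that overlap on opposite strands cannot be told apart. The authors deposited 2 tables, normalised separately, with RPKM per library, per the file headers. The deposited log2 fold change, F score, p-value and false discovery rate of the authors stand beside the RPKM values. Of 23794 gene lines, 4 with a repeated name were left out, leaving 23790. The values are whole multiples of what 1 read is worth for 100% of the genes (tolerance 0.02 reads), which gave reads per gene and transcript length. Each member had at least 52 reads in every library.

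Tests used limma 3.58.1 (R 4.3.3) on log2(RPKM + 1), its trend option on, and took genes reaching an RPKM of 1 in 3 or more libraries of the comparison. A fold change on this scale understates the change of low genes. P-values are 2-sided, were adjusted by Benjamini and Hochberg's method across every gene tested, and made a call under 0.05. Fits were tested on simulated data, with the changed genes drawn from all tested genes above a minimum of reads, not from the members. Members varied less than genes at large. Their median coefficient of variation was 10.97% in KO DSS and 7.46% in WT DSS libraries, against 14.37% and 11.67% over 10241 genes. The shares called below are thus not those of the members. Under DSS the fit called 0% of simulated 1.25-fold, 14% of 1.5-fold, 44% of 2-fold and 94% of 4-fold changes. In untreated libraries it called 6%, 50%, 78% and 100% of them, and for the difference of differences 2%, 10%, 62% and 88%. The members lay between 0.70-fold (Pdp2) and 1.42-fold (Mpc2) under DSS, so a lack of calls there says little about changes of this size. The members and lists were chosen with earlier results of these data known. All members are named. Values per library are given for the 5 with the smallest p in a comparison, as fewer than 5 were called, and for the highest and lowest of each role; those of Idh1, Slc25a12, Glul and Ppargc1a were added after their values were seen. Of other lists, called genes or else the genes with the smallest p are named. Alternatives were a pseudocount of 0.1, no filter, median-of-ratios scaling, voom, a lowess length correction (span 0.4), a 12-library fit, a replicate block and leaving out each library. Positions are from GENCODE vM21 on GRCm38, 1-based. Promoters are from RefSeq (GRCm38.p6). Protein sequences and sites of miR-147 were not used here.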

Additional observations from a re-analysis of the deposited data

Results flagged for a closer look

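For Acly, the KO against WT difference under DSS minus that in untreated mice was −1.04 on the log2 scale (adjusted p by limma = 0.0356), with 3 of 3 KO libraries below WT under DSS and 3 of 3 above it in untreated mice. For Slc1a1 the same difference was −0.93 (adjusted p by limma = 0.038), with 3 of 3 KO libraries below WT under DSS and overlap in untreated mice. Of the 12 fits that left out a library, 3 held the Acly call and 4 the Slc1a1 call. With no filter on low values both calls were lost (adjusted p by limma = 0.0751 for Acly and 0.0801 for Slc1a1). Cs (−0.43) and Got2 (−0.35) also had KO libraries wholly below WT under DSS and wholly above it in untreated mice, and the tested difference did not pass (adjusted p by limma = 0.171 and 0.162). The nearest Got2 values under DSS were 17.8 RPKM in KO and 17.9 RPKM in WT libraries. Of all genes tested, 23% did not overlap under DSS and 16% in untreated mice. The share that did so in opposite directions was not counted. What lies behind these differences was not tested, and DSS and batch cannot be told apart.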

How the results depend on the processing

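Under DSS, members called were 0 in the fits of that table and 1 in the 12-library fit (Pcx, adjusted p by limma = 0.0413). The 12-library fit takes its spread from the untreated libraries too, which varied less than the DSS libraries. With the length trend taken out, 11 members lay above 0 and their median was −0.0576; with a library left out the median ran from −0.0355 to 0.0788. In untreated mice the median was 0.1062 by voom, 0.0333 with the length trend taken out and 0.048 to 0.0868 with a library left out. In the difference of differences, 1 member was called by voom and 1 with the length trend taken out (Pdk3), and 0 to 1 with a library left out; the median was −0.0841 by voom, −0.1031 with the length trend taken out and −0.1103 to 0.0389 with a library left out. The cause was not tested. Over all genes, calls under DSS numbered 84, against 1 with no filter, 300 with the length trend taken out, 623 in the 12-library fit and 1 to 364 with a library left out; in untreated mice 2, against 1 with no filter, 1 in the 12-library fit and 2 to 6; in the difference of differences 158, against 4 with no filter, 543 with the length trend taken out and 1 to 433. The other 2 settings, a pseudocount of 0.1 and median-of-ratios scaling, called 0 members in each comparison. With a replicate block under DSS, 398 genes and 0 members were called; same-numbered libraries deviated with r of −0.114, 0.359 and 0.133, so the numbers were not taken to pair them, and KO 1 went best with WT 3 (0.297). Untreated groups share only the number 2, so no block was possible there. Isoenzyme ratio differences were also computed with each library left out, an alternative chosen after seeing the data, but leaving 1 of 3 libraries out cannot move such a mean by 1 SD and says nothing about stability. With 3 libraries per group, small differences such as these cannot be separated from library spread.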
